A study of Vaccinium virgatum with 9 samples.

Results

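Fruit of rabbiteye blueberry (Vaccinium virgatum) was compared by RNA sequencing between plants given potassium sulfate at the young fruit stage and plants given water. The comparison takes 3 libraries of each kind, chosen by the library titles, which is 6 of the 9 libraries of the series. The other 3 come from plants given potassium sulfate at flowering and are used here to estimate the spread and to show where the same genes stood at that timing. The plants of all groups were potted 7-year-old rabbiteye blueberries of the cross Menditoo × Tifblue, 1 plant per pot, in a substrate that itself held 0.88% total potassium and 190 mg/kg of fast-acting potassium. Potassium plants received 10 g of fertilizer each, dissolved in water, and control plants received the same amount of water. All fruit was picked 90 days after flowering, and each replicate pooled 12 to 18 fruits. Whether replicates are separate plants is not stated in the labels. The p-values therefore measure only how these libraries vary, and part of that variation may be technical. Potassium and sulfate were given together and cannot be told apart, nor can the stage of treatment and the number of days the fruit then had until picking. No batch is named in the labels, so one that followed the groups cannot be told apart from the treatment either.

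Potassium is the main inorganic cation of fleshy fruit. It acts in cell turgor and in the loading of sugar into fruit, and many enzymes need it. Blueberry fruit turns from green to blue late in its growth, as anthocyanins, the red to blue flavonoid pigments, build up in the skin. The title of the series gives potassium-induced anthocyanin production as its subject. The count table pairs no identifier with a gene name or function, so no pigment, transport or sugar gene can be pointed to, and the fruit could not be checked against marker genes of its tissues. No sequence is shown for the same reason. Genes whose identifiers begin with Vadar are called Vadar genes, and the remaining entries are called other loci.

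Library totals lay between 15979510 and 16812796 counts after potassium at young fruit and between 15655016 and 18424967 in water, so depth overlapped between the groups. After a filter on low counts 25728 genes were tested, which held 99.8% of the counts of every library. Levels are given as CPM, counts scaled to a common library total of 1000000, with totals adjusted by TMM, a method that assumes most genes do not change. CPM is not corrected for transcript length, so a rank by CPM orders genes by their share of counts and not by molecules.

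The treatments differed far more than the replicates of either treatment did. Any pair of 1 young-fruit-potassium library and 1 water library differed in 18.8 to 19.5% of its counts, over 9 pairs. Here the share is the part of one library's counts that would have to be moved between genes to match the other. Libraries of the same treatment differed in 3.01 to 3.83% after potassium at young fruit and in 3.49 to 5.08% in water. No pair between treatments came near the range of the pairs within them. Pairs share libraries, so no test was made of them.

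**Figure D1:**
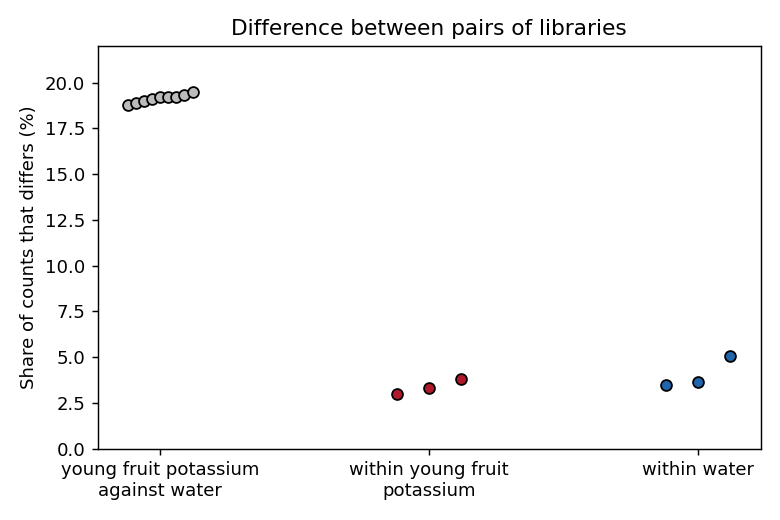
Share of counts (%) that differs between 2 libraries, for the 9 pairs of potassium at young fruit against water, the 3 pairs within potassium at young fruit and the 3 pairs within water; each point is 1 pair. The pairs across treatments lie between 18.8 and 19.5%, and the highest pair within a treatment is at 5.08%.

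The number of genes that changed was large, and rises and falls were nearly equal in number. By edgeR's quasi-likelihood test with Benjamini-Hochberg adjustment over all genes, 13206 genes passed an adjusted p of 0.05, which is 51.3% of those tested. Of these 6582 rose (25.6%) and 6624 fell (25.7%) after potassium at young fruit. Since the table is of whole fruit, fewer cells of a type and less RNA per cell cannot be told apart. The near-equal split rests on the scaling: with library size scaling 5132 genes rose and 8190 fell. The median over all tested genes was then -0.14 on the log2 scale, against -0.02 with TMM. The scalings shared 11756 calls, and 1450 of the TMM calls were not made with library size scaling.

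The calls were set beside a description free of any model for the spread. The 3 libraries of one treatment all lay above the 3 of the other in 14722 genes, 57.2% of those tested. Potassium at young fruit was the higher one in 28.1% and the lower one in 29.1% of genes tested. For a single gene such separation has an exact two-sided permutation p of 0.1. Some of these genes would therefore separate without any difference between treatments. Of the 13206 genes called, 12607 had groups that did not overlap and 599 had groups that did. A further 2115 genes had groups that did not overlap but missed the threshold. With each of the 6 libraries left out in turn, 10191 of the calls (77.2%) were made in all 6 fits.

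The genes that gained and lost the most transcripts are shown first, ranked by the difference in mean CPM among called genes whose groups did not overlap. The largest gain was that of Vadar_g7967.v1.2, the most abundant gene in the mean of either treatment. Its CPM was 14236, 15353 and 14781 in the libraries of potassium at young fruit, against 8981, 9661 and 7843 in water. All 3 potassium libraries lay above all 3 water libraries, as the ranking required. The means were 14790 ± 559 CPM after potassium and 8828 ± 919 CPM in water (SD, n = 3 each), a log2 fold change of 0.74 ± 0.05 (SE, edgeR adjusted p = 2.71e-11). In the flowering-stage potassium libraries the same gene averaged 16961 ± 968 CPM.

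The gain of Vadar_g45102.v1.2 was nearly as large and was larger as a fold. It had 8485, 8803 and 8572 CPM after potassium at young fruit and 3261, 3332 and 3133 CPM in water. The groups were far apart compared with their spread, with means of 8620 ± 165 and 3242 ± 101 CPM (SD, n = 3 each). The log2 fold change was 1.41 ± 0.04 (SE, edgeR adjusted p = 3.62e-19), and the gene took rank 2 by CPM after potassium at young fruit, against rank 11 in water. In the flowering-stage potassium libraries its mean was 7014 ± 339 CPM.

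The largest loss was in Vadar_g2639.v1.2. It had 959, 926 and 1019 CPM after potassium at young fruit, against 5344, 5294 and 5865 CPM in water. The highest potassium library was thus far under the lowest water library. Means were 968 ± 47.2 CPM after potassium and 5501 ± 316 CPM in water (SD, n = 3 each), with a log2 fold change of -2.51 ± 0.05 (SE, edgeR adjusted p = 4.79e-22). The gene held rank 88 after potassium and rank 4 in water, and its flowering-stage potassium mean was 1343 ± 48.1 CPM.

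The other large loss was in Vadar_g4893.v1.2, the gene at rank 2 in water. Its level was 2030, 1841 and 2081 CPM after potassium at young fruit and 6246, 5596 and 6884 CPM in water. The water libraries were spread more widely than the potassium libraries. That the groups did not overlap was a condition of the ranking. Means were 1984 ± 126 CPM after potassium, where it took rank 30, and 6242 ± 644 CPM in water (SD, n = 3 each). The log2 fold change was -1.65 ± 0.06 (SE, edgeR adjusted p = 2.17e-17), and the level after potassium at flowering was 2858 ± 79.2 CPM.

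The genes at ranks 3 to 10 by gain, 7 Vadar genes and 1 other locus, had log2 fold changes from 0.73 to 2.90. Their means lay between 2062 and 7705 CPM after potassium at young fruit and between 277 and 2962 CPM in water. The gene at rank 5 by gain had 3896 ± 234 CPM after potassium at young fruit and 660 ± 26.3 CPM in water (SD, n = 3 each), and was higher still after potassium at flowering, at 6725 ± 254 CPM. The gene at rank 10 showed another order, with 4419 ± 110 CPM after potassium at young fruit, 2586 ± 88.2 CPM after potassium at flowering and 2672 ± 93.0 CPM in water. For that gene the flowering-stage and water means differed by less than 1 SD of either group.

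Among losses, ranks 3 to 10 again held 7 Vadar genes and 1 other locus, with log2 fold changes from -3.10 to -0.61. Means were between 434 and 3525 CPM after potassium at young fruit and between 2161 and 5712 CPM in water. The strongest of these by fold was the other locus at rank 3, with 434 ± 17.1 CPM after potassium at young fruit and 3719 ± 223 CPM in water (SD, n = 3 each). The gene at rank 8 by loss had a mean below water at this timing and above it at flowering, with 3525 ± 132 CPM after potassium at young fruit, 6455 ± 224 CPM after potassium at flowering and 5393 ± 337 CPM in water. Across ranks 3 to 10 in both directions, the highest edgeR adjusted p against water was 2.13e-11. A call against water and groups that did not overlap were conditions of the ranking, so neither is a result about these genes. In a direct edgeR test of potassium at young fruit over potassium at flowering 5053 genes (19.6% of those tested) differed, and all 20 ranked genes were among them. The ranking used the same young fruit values and favours abundant genes, so the calls of the 20 between timings are partly given by the choice.

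**Figure D2:**
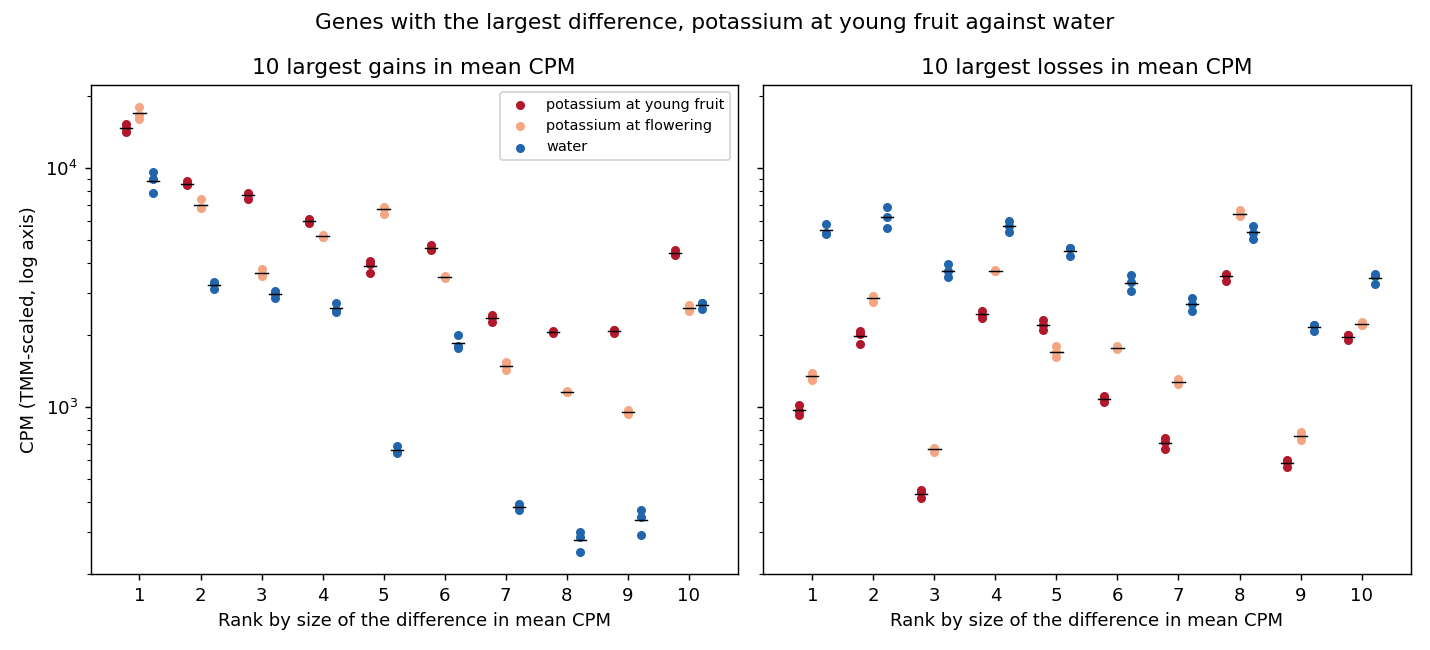
CPM (TMM-scaled, log axis) of the 10 largest gains (left) and the 10 largest losses (right) in mean CPM, by rank. Points are single libraries and black lines group means, for potassium at young fruit, potassium at flowering and water. The ranking required the 3 young-fruit-potassium libraries to lie on one side of the 3 water libraries. The flowering-stage libraries lie between the other groups in mean for 7 of the gains and 8 of the losses.

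The 10 most abundant genes were mostly different after treatment, while longer lists were mostly shared. Of the 10 most abundant genes after potassium at young fruit, only 2 were among the 10 most abundant in water. For the 100 most abundant the number was 67, and for the 1000 most abundant it was 780. A short list has a sharp edge. Among those that led after potassium, genes at ranks 2, 3, 4 and 10 by gain held ranks 11, 13, 17 and 16 in water. Those at ranks 5 and 6 by gain held ranks 127 and 31 there. Of the 10 that led after potassium at young fruit, 9 had risen and 0 had fallen, while of the 10 that led in water 1 had risen and 8 had fallen. A gene's own change helps to place it in such a list, so these directions are partly given by the choice. At equal depth the single most abundant gene took 1.44 ± 0.05% of the counts after potassium at young fruit and 0.929 ± 0.104% in water (SD, n = 3 each). The 10 most abundant took 6.06 ± 0.10% and 5.43 ± 0.02%, with potassium given first. Both measures had groups that did not overlap (exact two-sided permutation p = 0.1, the smallest that 3 against 3 allows, adjusted p = 0.167 over 5 measures). The share of the 100 most abundant genes overlapped between the groups, at 18.8, 19.1 and 19.3% after potassium at young fruit and 18.8, 18.8 and 19.0% in water (exact two-sided permutation p = 0.3, adjusted p = 0.3). Vadar genes together took 90.46, 90.22 and 90.43% after potassium at young fruit and 89.96, 89.67 and 90.26% in water, which also overlapped (exact two-sided permutation p = 0.2, adjusted p = 0.25).

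The shift in transcripts was nonetheless shared among many genes. Genes that rose together held 58.4, 58.8 and 58.8% of the counts after potassium at young fruit, against 40.1, 40.2 and 40.0% in water. Genes that fell held 19.2, 19.2 and 19.1% after potassium at young fruit and 35.9, 36.0 and 35.9% in water. Genes without a call held 22.4, 22.1 and 22.1% after potassium and 24.0, 23.8 and 24.1% in water. The calls come from the same libraries, so these sums describe the calls and do not test them. The 10 largest gains made up 14.1% of all gain in CPM and the 10 largest losses 17.7% of all loss. The upper 50% of the gain lay in 249 genes, and that of the loss in 175.

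By size, falls exceeded rises. The median log2 fold change was 0.60 among genes that rose and -0.94 among genes that fell. Scarce genes had larger standard errors, so they passed the threshold only with larger changes. These medians therefore depend on which genes could be called. At least a 2-fold change was seen in 1864 genes that rose (7.25% of those tested) and in 3093 that fell (12%). Those are 28.3% of the rises and 46.7% of the falls. The same order was found at every size counted, with 641 rises and 983 falls of at least 4-fold, 276 and 378 of at least 8-fold, 112 and 167 of at least 16-fold and 51 and 76 of at least 32-fold. More falls than rises of at least 2-fold were found under all 4 scalings. The counts were 1899 rises and 3044 falls with RLE scaling, 1704 and 3375 with upper quartile scaling, and 1568 and 3622 with library size scaling. Fitted folds of genes near 0 counts depend on the prior count of the fit and are not limits.

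**Figure D3:**
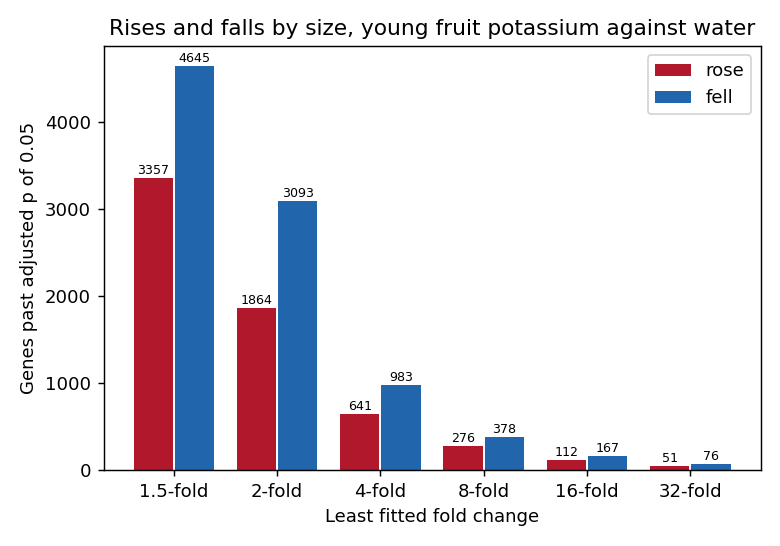
Number of genes past an adjusted p of 0.05 that rose or fell by at least the fitted fold change on the horizontal axis, potassium at young fruit over water. Falls outnumber rises in each class, with 3093 against 1864 at 2-fold and 76 against 51 at 32-fold.

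The precision of these folds followed the level of the gene. The standard error of the log2 fold change had a median of 0.17 over all genes tested, and 5% of genes had one above 0.57. In classes set by the mean level after potassium at flowering, libraries outside the comparison that had also received potassium, the median standard error was 0.51 below 1 CPM, 0.24 at 1 to 10 CPM, 0.09 at 10 to 100 CPM and 0.06 over 100 CPM. Replicates were about equally spread in both treatments, with a median SD of log2 CPM of 0.16 after potassium at young fruit and 0.16 in water. Over 100 CPM the median SD was 0.06 after potassium at young fruit and 0.07 in water, and below 1 CPM it was 0.47 and 0.39 in the same order.

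Whether genes stayed at their level was read from the 95% interval of the fold change, which is not adjusted for the number of genes. The interval lay wholly within 1.5-fold in either direction for 8092 genes, 31.5% of those tested. Of these 5107 had no call, and 2985 had a small change that passed the threshold, upward in 1962 and downward in 1023. At the other end, the interval lay wholly beyond 1.5-fold in 4807 genes, higher after potassium in 1979 and lower in 2828. For 7415 genes (28.8%) there was neither a call nor an interval within 1.5-fold, so at this depth and spread a change of that size could be neither shown nor set aside. That a gene was held within 1.5-fold could be seen in 0.05% of genes below 1 CPM, 13.6% at 1 to 10 CPM, 58.5% at 10 to 100 CPM and 62.1% over 100 CPM, in classes by the flowering-stage libraries.

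**Figure D4:**
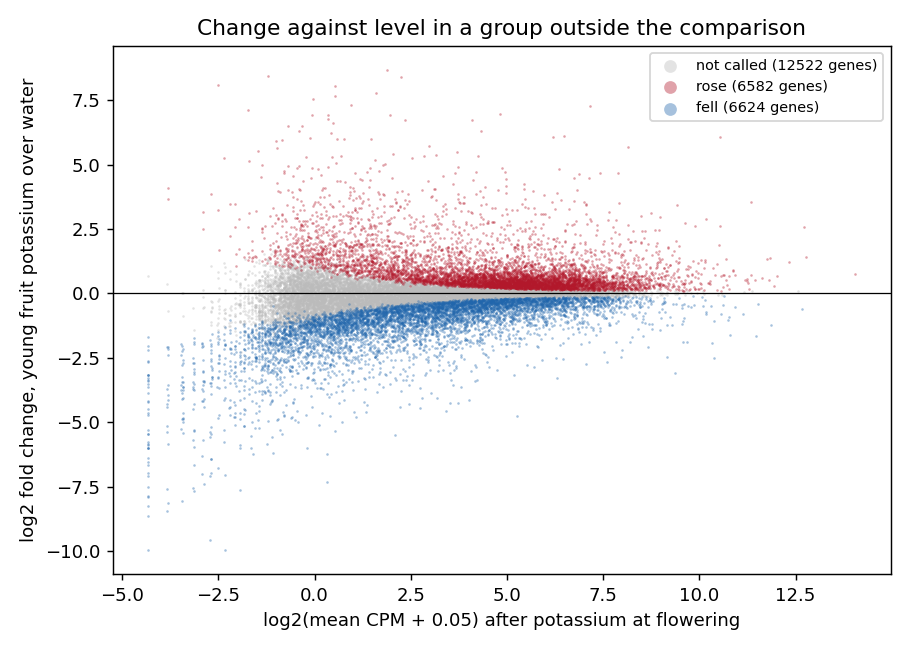
Log2 fold change of potassium at young fruit over water for all 25728 genes tested, against log2(mean CPM + 0.05) after potassium at flowering. Red marks the 6582 genes that rose, blue the 6624 that fell and grey the rest; the grey band narrows to the right, where standard errors are smaller.

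How rises and falls were divided by abundance depended on the libraries that set the abundance class. With classes set by potassium at flowering, rises made up 58.5% and falls 20.4% of the 2146 genes over 100 CPM, and below 1 CPM rises made up 7.13% and falls 26.9% of 4405 genes. With classes set by water, 44.0% of 1899 genes over 100 CPM rose and 34.5% fell, while below 1 CPM 21.8% of 3529 genes rose and 5.75% fell. The direction among scarce genes thus turned with the choice. Among genes over 100 CPM it turned for changes of at least 2-fold, with 208 rises and 64 falls in classes set by flowering-stage potassium and 95 rises and 160 falls in classes set by water. The filter on low counts could be passed through a single group. A gene scarce in the libraries that set its class may thus have been tested because it was higher elsewhere. Water is also a side of the comparison, so its scarce class leans toward rises by the choice.

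At 1 to 10 CPM falls exceeded rises with classes set by the flowering-stage or by the water libraries, under each of the 4 scalings. There 15% of genes rose and 26.8% fell with classes set by potassium at flowering, and 14.4% rose and 26.8% fell with classes set by water. At 10 to 100 CPM, 38.1% rose and 25.3% fell in classes set by flowering-stage potassium, which turned to 28.6% and 33.3% with library size scaling. Changes of at least 2-fold in that class were 515 rises and 416 falls when set by flowering-stage potassium. They were 382 rises and 859 falls when set by water, so the excess of falls by size was not seen in every class. The excess of rises over 100 CPM in classes set by water (44.0% against 34.5%) turned to 33.3% rises and 43.5% falls with library size scaling, a combination added after the values had been seen. The flowering-stage libraries had also received potassium, and in 7 of the 10 largest gains and 8 of the 10 largest losses their mean lay between those of the other groups. Classes set by them are therefore partly set by a change of the same kind, and no direction is read from the classes below 1 and over 100 CPM.

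**Figure D5:**
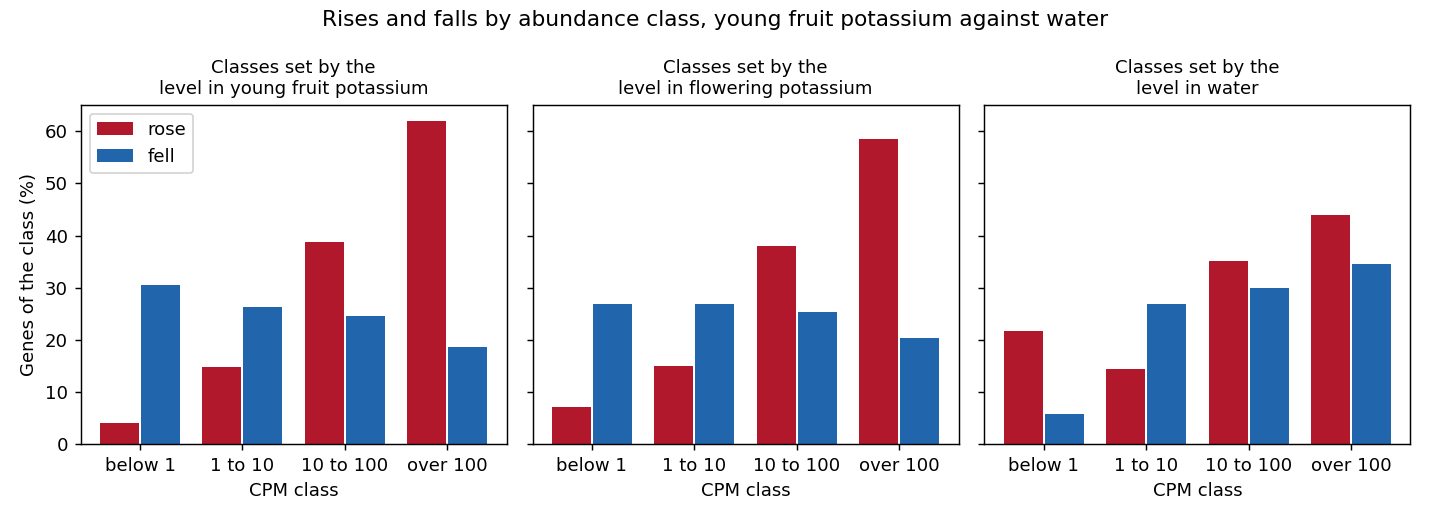
Percentage of genes that rose or fell after potassium at young fruit against water, by CPM class, with classes set by the level in potassium at young fruit (left), potassium at flowering (middle) and water (right). Below 1 CPM more genes fell in the left and middle panels (26.9% in the middle) and more rose in the right panel (21.8%); at 1 to 10 CPM more fell in all 3.

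Fewer genes were detected after treatment. At equal depth 33229, 33145 and 32952 genes had at least 1 count in the libraries of potassium at young fruit, against 34029, 34115 and 33948 in water. The means were 33109 ± 142 and 34031 ± 83.5 genes (SD, n = 3 each, exact two-sided permutation p = 0.1, the smallest possible, adjusted p = 0.167 over 5 measures). The groups did not overlap. Without thinning the means were 33204 ± 122 and 34139 ± 254 genes, in the same order.

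A few genes were detected in all libraries of one treatment and in none of the other. No count was found in any of the 3 young-fruit-potassium libraries for 27 genes that had 10 or more in every water library. They had 0.655 to 7.60 CPM in water, median 1.39, so that with a floor of 3 counts over the group they were at least 10.4-fold to 121-fold lower after potassium. Of the 27, 10 were at 0 throughout the flowering-stage potassium libraries too, and the highest flowering-stage mean among the 27 was 0.148 CPM. In the opposite direction 11 genes had 10 or more counts in every young-fruit-potassium library and 0 in water. Their level after potassium at young fruit was 0.733 to 2.64 CPM, median 1.55, at least 12.8-fold to 46.1-fold higher than water. After potassium at flowering these 11 had 0.125 to 4.69 CPM. The rule asks for every library, so leaving a library out can only keep or raise these counts. Leaving out young fruit replicate 1 raised the 27 to 48, and leaving out water replicate 1, 2 or 3 raised the 11 to 18, 18 and 21. Floors cover counting error only.

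Vadar genes were called more often than other loci, and they were also more abundant. Of 19981 Vadar genes 54.9% were called, with 5428 rises and 5533 falls, and of 5747 other loci 39.1% were called, with 1154 rises and 1091 falls. The median level after potassium at flowering was 10.6 CPM in Vadar genes and 1.91 CPM in other loci. Within classes set by those libraries the shares were closer at higher levels, with 63.1% of Vadar genes and 65.5% of other loci at 10 to 100 CPM, and 79.0% and 78.8% over 100 CPM. Below 1 CPM they were 40.6% and 24.1%, and at 1 to 10 CPM 44.1% and 36.2%. Changes of at least 2-fold comprised 1278 rises and 2517 falls among the 19981 Vadar genes, and 586 rises and 576 falls among the 5747 other loci. As a share of their set, such rises were more frequent in other loci and such falls in Vadar genes. Rises and falls of that size together were about as frequent in both sets. How the other loci were defined is not given in the sources used, and what part that has in the difference was not tested.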

How the data were processed

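RNA from fruit was sequenced in 9 libraries, 3 per group, and the group and replicate number were read from the titles. Per the labels' protocols, extraction was with Trizol and the library kit was NEBNext Ultra. The authors deposited whole-number counts per gene without normalization, 1 column per library. The submitters' processing notes name HISAT2 2.1.0 and StringTie 1.3.4d without their roles. For the counting tool, genome build, annotation and strand setting the sources used here give nothing. Reads of near-identical gene copies in a polyploid, of overlapping genes or of antisense partners may be split or merged in the counts.

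Of 38665 entries (28300 Vadar genes and 10365 other loci) 25728 passed filterByExpr with a minimum count of 10 and a minimum total of 15. edgeR 4.0.16 in R 4.3.3 took all 9 libraries in one fit, each group with its own term (TMM, quasi-likelihood F test, Benjamini-Hochberg, threshold 0.05). The standard error is the log2 fold change divided by the root of F, and 95% intervals use the t quantile of the fit. "Rose" and "fell" mean past that threshold. Genes were named by identifier, 2 per direction, for the largest difference in mean CPM among called Vadar genes whose groups did not overlap, and the next ones down to rank 10 were described by rank. Equal depth means counts thinned to the smallest library. The log2 CPM used a prior count of 2. The comparison, lists and measures were chosen with earlier results of these data known. The 7 pathway lists and 4 tissue marker lists drawn up could be matched to 0 identifiers and were not used. The fit was also run on simulated counts in which few genes changed, so that run cannot check the scaling or calls where many do. Replicates within a group differed by more than sampling noise (chi-square per degree of freedom 3.15 to 6.38), so no library appeared to be a repeated deposit. Alternatives were limma 3.58.1 with voom, DESeq2 1.42.0, 3 other filters, 3 other scalings, the 6 libraries alone, a replicate block, stricter tests, other abundance classes and each library left out.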

Additional observations from a re-analysis of the deposited data

Results flagged for a closer look

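Against the water libraries that both comparisons share, the 2 potassium timings gave different changes in all 20 genes ranked by gain or loss, by a direct edgeR test of potassium at young fruit over potassium at flowering with adjustment over all genes. Of all 25728 genes 5053 passed that test (19.6%).

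For Vadar_g7967.v1.2 the log2 fold change of young fruit over flowering was -0.20 ± 0.05 (SE, edgeR adjusted p = 0.00914), and without flowering replicate 2 it was -0.15 with an edgeR adjusted p of 0.0702. For Vadar_g45102.v1.2 it was 0.30 ± 0.04 (SE, edgeR adjusted p = 2.76e-06). Vadar_g2639.v1.2 had -0.47 ± 0.05 and Vadar_g4893.v1.2 -0.53 ± 0.06 (SE, edgeR adjusted p = 3.53e-08 and 1.38e-07), so both stood lower after potassium at young fruit than after potassium at flowering.

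Among gains at ranks 3 to 10 the log2 fold change of young fruit over flowering was 1.08, 0.21, -0.79, 0.41, 0.67, 0.83, 1.13 and 0.77, in order of rank. The gene at rank 5 was thus the exception among these 8, being lower after potassium at young fruit than after flowering. Among losses at ranks 3 to 10 the values were -0.62, -0.61, 0.37, -0.71, -0.85, -0.87, -0.38 and -0.18, where the gene at rank 5 was the exception. The highest edgeR adjusted p of these 16 was 0.00238. Over all 20 genes, 8 gains stood above and 2 below their flowering-stage level, and 1 loss stood above and 9 below it. The genes were ranked by the same young fruit values, so these directions are partly given by the choice.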

How the results depend on the processing

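Of 794 values recomputed under alternatives, 753 stayed on their side of the threshold, within 1.5 times or, for library measures, in the same direction. Among them were 419 of 420 log2 fold changes of the ranked genes against water. Those genes were chosen for large called differences, so that they stayed called was largely given by the choice. The exception was the gene at rank 8 by loss, at an edgeR adjusted p of 0.345 in the test against a 1.5-fold change. Leaving out each of the 9 libraries in turn gave 12098 to 13376 changed genes, and DESeq2 called 12567, of which 12550 were edgeR calls. Tested against a change of 1.5-fold rather than 0, 4992 genes passed (2044 rises, 2948 falls), 20.4% of Vadar genes and 16.1% of other loci, and in it none of the 4 genes named by identifier passed between timings (log2 fold changes -0.20, 0.30, -0.47 and -0.53, edgeR adjusted p = 1 each). With only genes averaging 50 counts or more there were 961 rises and 1563 falls of at least 2-fold, and without any filter 25.5% of other loci were called. The excess of rises over falls, in percentage points of a class, moved most often, and apart from the filters the cause was not tested. Below 1 CPM it was -93.4 with the filter at 50 counts and -35.7 with CPM above 1 in 3 libraries. Those filters kept 76 and 2016 of 4405 genes, of which 76 and 1816 had a mean above 1 CPM in water or young fruit, so the choice of genes sets these values. It was 16.1 with classes set by water and -8.66 with classes set by all libraries. At 1 to 10 CPM it was -20.0 with library size scaling, -22.5 at 50 counts, -6.62 against 1.5-fold and -20.8 with water classes and library size scaling together. At 10 to 100 CPM it was 3.54 with upper quartile and -4.61 with library size scaling, 6.31 at 50 counts, 1.58 against 1.5-fold and 5.12 with water classes. Over 100 CPM it was 18.8 with library size scaling, 11.5 against 1.5-fold and 9.43 with water classes, and with water classes 10.9, -0.16 and -10.3 under RLE, upper quartile and library size scaling, combinations added after seeing the data. Genes at 0 numbered 76 in young fruit and 28 in water with a minimum of 5 counts, 12 and 6 with 20, and 30 to 48 and 12 to 21 with a library left out. The log2 fold change of Vadar_g7967.v1.2 between timings ranged from -0.23 to -0.15 with a library left out. With the replicate number as a block 13328 genes were called, 13031 of them shared. Deviations of same-numbered libraries correlated at -0.0085, 0.046 and -0.0036 across genes, and young fruit replicate 1 correlated best with water replicate 3 (0.054). No pairing by number was seen, though a weak one could be missed by this check. Below 1 CPM the depth left nearly all genes without an interval inside 1.5-fold.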

Other observations

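Vadar genes with consecutive identifier numbers changed alike somewhat more often than other pairs. Of 10962 such pairs of tested genes, 1080 had both members rise and 1026 had both fall, together 19.2%, and 1489 pairs (13.6%) moved in opposite directions. Over all pairs of tested Vadar genes the shares were 15% for the same direction and 15% for opposite directions. For changes of at least 2-fold, 113 pairs rose together, 258 fell together and 130 were opposite, so that 3.38% moved the same way, against 2% of all pairs. Log2 fold changes of the consecutive pairs correlated at r = 0.14 (Spearman 0.13) across 10962 pairs, which share genes and are not independent. With numbers up to 2 apart 18.3% of 21245 pairs changed the same way.

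Unbroken runs of consecutive numbers that changed at least 2-fold in one direction were mostly short. There were 77 runs of 2 that rose and 203 that fell, 7 and 20 of 3 genes, 6 and 5 of 4 genes, and 1 run of 5 genes that rose. Whether the numbers follow positions in the genome is not given in the sources used here, and whether counting divided reads between similar neighbours was not tested.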
